A study of Mus musculus with 16 samples.

Results

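Marker genes of islet blood vessels, 10 in all, were followed in mouse pancreatic islets, 8 of endothelial cells (Plvap, Cdh5, Kdr, Flt1, Tie1, Esam, Egfl7 and Erg) and 2 of pericytes (Rgs5 and Pdgfrb). They were chosen by name, and each name matched 1 row, so that 10 of the 10208 genes in the authors' deposited table are described. The islets came from adult mice and fell into Cre+T (7 samples) and Cre-T (9 samples). Every sample carried the genotype label Ins1-/-:Ins2f/f:Pdx1CreERT:mTmG, on a mixed and mostly C57Bl/6 background. The controls therefore lacked Ins1 as well, and the label gives CreERT to both groups without saying whether Cre-T mice held the transgene. CreERT is a recombinase that tamoxifen activates, its gene is driven by regulatory sequence of Pdx1, a factor of beta cells, and mTmG is a fluorescent reporter of recombination. Tamoxifen, given to delete Ins2, is recorded 6 days before isolation for every sample, Cre-T as well as Cre+T. The labels give no number of mice per sample.

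The table gives no values per sample. For each gene it holds the limma fold change of 1 comparison, the mean over samples as log2 CPM (counts scaled to a common library size) and the tests. How far single samples of the groups overlap could therefore not be seen, and no sample could be left out. Errors are standard errors taken as the fold change divided by the moderated t. Each fold change sets Cre+T over Cre-T, a direction that the header does not name. It was read from Ins2 (log2 fold change -0.47 ± 0.17) and Esr1 (9.30 ± 0.39), part of the CreERT fusion, per the authors' deposited table. Read so, Esr1 was 629-fold higher in Cre+T. The groups thus differed in RNA of the fusion as well as in Ins2, and the parts of both cannot be told apart in this comparison. Group levels are estimates from the mean and the fold change with groups of 7 and 9, which assumes that all 16 samples entered the fit. The sample titles open with 6 numbers that the labels do not explain. Samples of both groups share 2 of these numbers, 7 samples in all, and for the other 9 samples the number and the group cannot be told apart. The labels' protocols give 20000000 read pairs a sample, and the depth each sample reached is unknown. Where nothing says that samples were separate mice, the p-values measure the spread between samples, part of which may be technical.

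Islets are threaded by a dense net of capillaries. Their endothelial cells are fenestrated, which lets hormones pass into the blood, and they depend on vascular endothelial growth factor A (VEGF-A) from beta cells. Pericytes are contractile mural cells that sit on the capillary wall within the basement membrane and are recruited by PDGF-B from the endothelium.

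The promoters of 4 of these genes are shown, since ERG is itself a transcription factor of the ETS family, whose members bind the core letters GGAA. Erg and Rgs5 passed the test of the comparison, and Kdr and Tie1 did not. The windows are RefSeq's on GRCm38.p6, from 250 bases before to 50 after the annotated start, written 5′ to 3′ on the gene's strand, with GGAA on either strand (GGAA or TTCC) in capitals.
Erg, chr16:95586544-95586843, minus strand: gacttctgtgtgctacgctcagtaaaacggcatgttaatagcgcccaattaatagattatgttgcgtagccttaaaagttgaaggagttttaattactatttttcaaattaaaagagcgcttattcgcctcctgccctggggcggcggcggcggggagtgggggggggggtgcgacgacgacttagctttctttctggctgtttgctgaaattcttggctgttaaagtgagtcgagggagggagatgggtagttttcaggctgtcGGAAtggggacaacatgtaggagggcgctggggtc
Rgs5, chr1:169655251-169655550, plus strand: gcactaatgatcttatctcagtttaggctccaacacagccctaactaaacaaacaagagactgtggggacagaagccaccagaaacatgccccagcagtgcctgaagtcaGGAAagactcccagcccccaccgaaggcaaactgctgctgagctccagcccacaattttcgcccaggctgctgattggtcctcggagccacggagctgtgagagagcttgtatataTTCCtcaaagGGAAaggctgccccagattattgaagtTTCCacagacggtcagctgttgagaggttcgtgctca
Kdr, chr5:75978406-75978705, minus strand: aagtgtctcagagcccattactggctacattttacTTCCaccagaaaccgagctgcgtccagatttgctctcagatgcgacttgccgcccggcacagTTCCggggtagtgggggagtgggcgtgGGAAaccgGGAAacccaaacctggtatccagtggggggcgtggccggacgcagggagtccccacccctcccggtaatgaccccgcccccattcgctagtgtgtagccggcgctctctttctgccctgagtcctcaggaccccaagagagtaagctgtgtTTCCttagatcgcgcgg
Tie1, chr4:118489800-118490099, minus strand: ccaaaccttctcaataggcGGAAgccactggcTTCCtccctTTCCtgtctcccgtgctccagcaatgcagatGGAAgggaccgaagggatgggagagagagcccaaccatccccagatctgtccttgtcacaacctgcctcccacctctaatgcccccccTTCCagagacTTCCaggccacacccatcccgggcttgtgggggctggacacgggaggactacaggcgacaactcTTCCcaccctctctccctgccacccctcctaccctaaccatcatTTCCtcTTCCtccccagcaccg
RefSeq windows were found for 6 of the genes, 10 windows in all. Each held GGAA on at least 1 strand, as did 96.0% of all 32851 windows. The Tie1 window had 9 matches, the Kdr window 5, the Rgs5 window 4 and the Erg window shown 1, beside a median of 3 over all windows. Erg has further annotated starts, whose windows are not shown and had 4 and 2 matches. The longer letters CCGGAAG, which contain GGAA, the letters CACGTG and the CArG box, each searched on both strands, were in none of the 10. Of all windows, 8.86% held CCGGAAG, 7.15% CACGTG and 1.63% the CArG box. These matches describe letters and show no binding.

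Most of the endothelial genes did not pass the test of the comparison. Of the 8, Plvap and Erg were higher in Cre+T at a limma adjusted p under 0.05, and 6 did not pass, per the authors' deposited table. The 2 called are 25% of the 8, below the 37.6% of all genes called in either direction. Both were higher, and of all genes 17.6% were called higher and 20.1% lower per the authors' deposited table. For all 10 markers 4 were called, near the background of 37.6%. Other call rules gave 2 of the 10 at an adjusted p under 0.01 (18.0% of all genes), 1 with a minimum of 1 log2 unit (3.7%), 2 among genes at or above the median mean (37.2%) and none with Holm adjustment of the limma p (1.35%), where 4 had an unadjusted p under 0.05. Scaling to the ribosomal protein genes gave 3 (40.1%), scaling to equal summed expression 3 (47% of all genes), and the authors' q-value 5 (54.4%). The median log2 fold change of the 8 was 0.28, against 0.00 for all genes. In whole islets, fewer cells of a type and less RNA per cell cannot be told apart. Markers of acinar cells (21 of 22, median 2.55) and red blood cells (3 of 4, median 3.37) were mostly called higher per the authors' deposited table, against 17.6% of all genes. Of the leukocyte markers 3 of 8 were called (median 0.50), a share of 37.5% and thus near the 37.6% of all genes. The part of these cells in the values of the vessel genes was not tested.

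Plvap encodes the protein of the diaphragms that span endothelial fenestrae, and it had the largest difference of the 8. Its estimated level was 129.6 CPM in Cre+T and 65.0 CPM in Cre-T, which is 1.99-fold. The log2 fold change was 0.995 ± 0.24 with a limma adjusted p of 0.0064 per the authors' deposited table, with a fold interval (95%) of 1.39 to 2.85. The call held under each scaling tried. Plvap (ENSMUSG00000034845.5) lies on chromosome 8 from 71497765 to 71511752 on the minus strand (GRCm38, GENCODE M21). Its annotated span overlaps Gtpbp3 on the other strand, and reads of the overlap may not be told apart, since no stranded count is stated.

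Erg encodes an ETS factor that maintains endothelial identity. Its estimated level was low, at 17.2 CPM in Cre+T and 11.3 CPM in Cre-T. The log2 fold change was 0.61 ± 0.22 with a limma adjusted p of 0.042 per the authors' deposited table, a 1.53-fold difference with an interval of 1.10 to 2.12. The call of Erg was lost when the median ribosomal protein gene was set to 0 (adjusted p = 0.064) and when summed expression was made equal in both groups (adjusted p = 0.096). Erg (ENSMUSG00000040732.13) lies on chromosome 16 from 95359169 to 95586593.

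Cdh5 and Tie1 stood next in size and did not pass. Cdh5 is VE-cadherin, the adhesion protein of endothelial junctions, with 98.3 CPM in Cre+T and 73.9 CPM in Cre-T as estimates. Its log2 fold change was 0.41 ± 0.20 (limma adjusted p = 0.12) per the authors' deposited table, with a fold interval of 0.987 to 1.79. Tie1, an orphan receptor kinase that modulates angiopoietin signalling, had 0.39 ± 0.22 (limma adjusted p = 0.18) per the authors' deposited table. Its estimated levels were 24.3 CPM in Cre+T and 18.6 CPM in Cre-T. The fold interval of Tie1 was 0.945 to 1.81, so the intervals of both genes include 1. Cdh5 lies on chromosome 8 from 104101625 to 104144511, where it overlaps an antisense model, Gm29682.

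The receptors of VEGF did not pass. Kdr, the main signalling receptor for VEGF-A (VEGFR2), had 93.0 CPM in Cre+T and 91.6 CPM in Cre-T as estimates, a log2 fold change of 0.02 ± 0.21 (limma adjusted p = 0.94) per the authors' deposited table. Flt1, VEGFR1, which binds VEGF-A tightly and signals weakly, had 95.6 CPM in Cre+T and 85.6 CPM in Cre-T and a log2 fold change of 0.16 ± 0.20 (limma adjusted p = 0.55) per the authors' deposited table. The 95% interval of the fold was 0.748 to 1.38 for Kdr and 0.834 to 1.49 for Flt1, so the data allow changes up to these bounds. Kdr and Flt1 lie on chromosome 5, from 75932827 to 75978458 and from 147561604 to 147726011.

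Esam and Egfl7 were also close between the groups. Esam, an adhesion protein of endothelial tight junctions, had 35.7 CPM in Cre+T and 34.8 CPM in Cre-T as estimates. Its log2 fold change was 0.04 ± 0.16 (limma adjusted p = 0.87) per the authors' deposited table, with a fold interval of 0.808 to 1.30. Egfl7, a secreted protein of endothelial matrix, had 14.5 CPM in Cre+T and 12.9 CPM in Cre-T and a log2 fold change of 0.16 ± 0.17 (limma adjusted p = 0.47) per the authors' deposited table. Its span on chromosome 2 (26580014 to 26593120) overlaps Agpat2 on the other strand and Gm20532 on the same strand, so its value is uncertain. The signs of Kdr and Esam turned negative with the ribosomal or the summed scaling, while the other 6 endothelial genes stayed positive under each scaling.

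**Figure D1:**
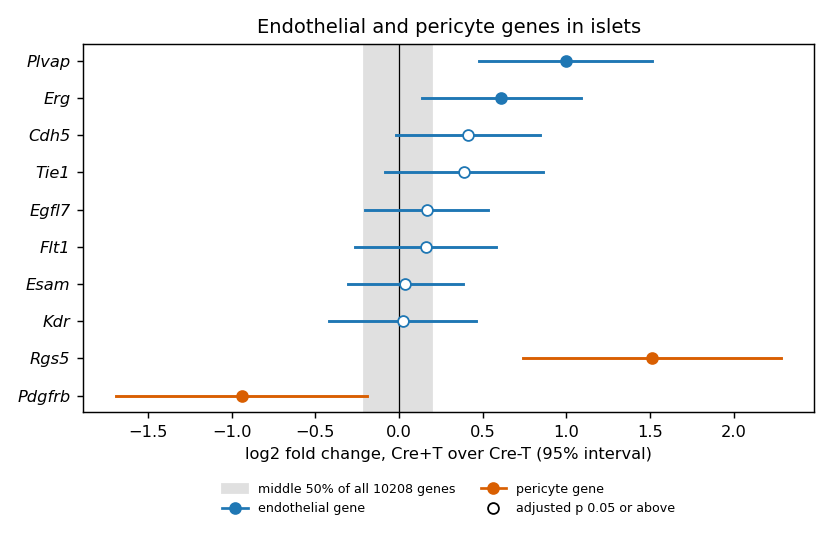
Log2 fold change of the 10 genes, Cre+T over Cre-T, with 95% intervals from the authors' deposited table; filled points have an adjusted p under 0.05, and the grey band holds the middle 50% of all 10208 genes. Plvap (0.995), Erg (0.61) and Rgs5 (1.51) lie right of 0 with their intervals, Pdgfrb (-0.94) lies left of it, and the intervals of the other 6 include 0.

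The pericyte genes went opposite ways. Rgs5, a regulator of G-protein signalling that is abundant in pericytes, was higher in Cre+T, with an estimated 74.9 CPM in Cre+T and 26.2 CPM in Cre-T. Its log2 fold change was 1.51 ± 0.36 with a limma adjusted p of 0.0058 per the authors' deposited table, a 2.85-fold difference with an interval of 1.67 to 4.87. Rgs5 (ENSMUSG00000026678.5) lies on chromosome 1 from 169655501 to 169695813, with no overlapping gene annotated.

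Pdgfrb, the receptor through which pericytes answer PDGF-B, was lower in Cre+T. Its estimated level was 14.2 CPM in Cre+T and 27.3 CPM in Cre-T. The log2 fold change was -0.94 ± 0.35 with a limma adjusted p of 0.047 per the authors' deposited table, which is 0.521 of the Cre-T level with an interval of 0.310 to 0.877. That adjusted p is close to the threshold, and it was 0.020 with summed expression made equal. The same scaling shifts every gene down and took the genes called lower from 2049 to 3934 of 10208. Pdgfrb lies on chromosome 18 from 61045150 to 61085061. The log2 fold change of Rgs5 exceeded that of Pdgfrb by 2.45. The widest 95% interval of this difference, which holds for any correlation of the genes across samples, was 0.93 to 3.97. That comparison within the pericyte genes was added after their values were seen. A single direction for the pericyte genes cannot be given.

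The estimates of the endothelial genes lay between those of Rgs5 and Pdgfrb. Each of the 16 pairs of an endothelial and a pericyte gene was compared by the difference of their log2 fold changes, with the sum of both standard errors as the widest error, since the correlation between genes is unknown. The interval left out 0 in 8 of 16 pairs, without adjustment over the pairs. How many of all genes would part from Rgs5 or Pdgfrb in this way was not counted. The median log2 fold change of all genes, -0.003, also lay between those of Rgs5 and Pdgfrb. The 8 of 16 can therefore not be called particular to endothelial genes. No endothelial gene had an interval without 0 against both pericyte genes. Against Rgs5, the log2 fold changes of Kdr (by 1.49), Esam (by 1.48), Flt1 (by 1.35) and Egfl7 (by 1.35) were lower, as the interval without 0 shows in 4 of 8 pairs. Against Pdgfrb, those of Plvap (by 1.93), Erg (by 1.55), Cdh5 (by 1.35) and Tie1 (by 1.33) were higher in the same sense. The endothelial genes nearest to Rgs5 were Plvap and Erg, whose intervals against it include 0. Among the 28 pairs of endothelial genes, only Plvap against Kdr (0.97, interval 0.02 to 1.93) and Plvap against Esam (0.96, interval 0.10 to 1.82) had intervals without 0.

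**Figure D2:**
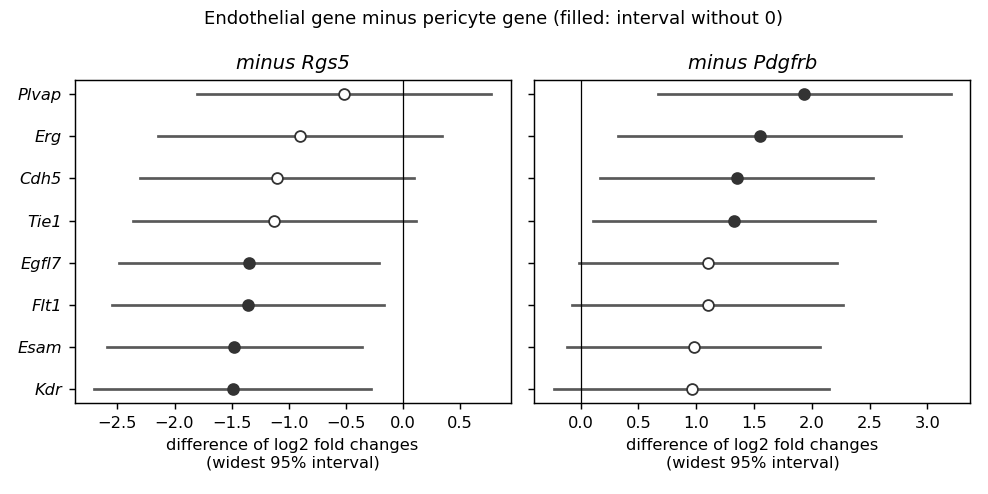
Difference of log2 fold changes, endothelial gene minus Rgs5 (left) or minus Pdgfrb (right), with the widest 95% interval; filled points mark intervals that leave out 0. Kdr, Esam, Flt1 and Egfl7 are below Rgs5, and Plvap, Erg, Cdh5 and Tie1 are above Pdgfrb.

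Fold changes of these genes carried large errors for their expression level. Standard errors ran from 0.16 (Esam) to 0.24 (Plvap) for the endothelial genes and were 0.36 for Rgs5 and 0.35 for Pdgfrb, against a median of 0.10 over all genes. Set against genes whose mean lay within 0.5 log2 units, each of the 10 had a larger error than the median gene. Rgs5 exceeded 98.8% of such genes, Pdgfrb 97.6% and Plvap 97.3%, while Egfl7 exceeded 76.2%. At these errors a gene needed a log2 fold change of at least 0.43 (Esam) to 0.64 (Plvap) among the endothelial genes to pass, and 0.95 for Rgs5 or 0.92 for Pdgfrb. Smaller differences could not have passed.

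**Figure D3:**
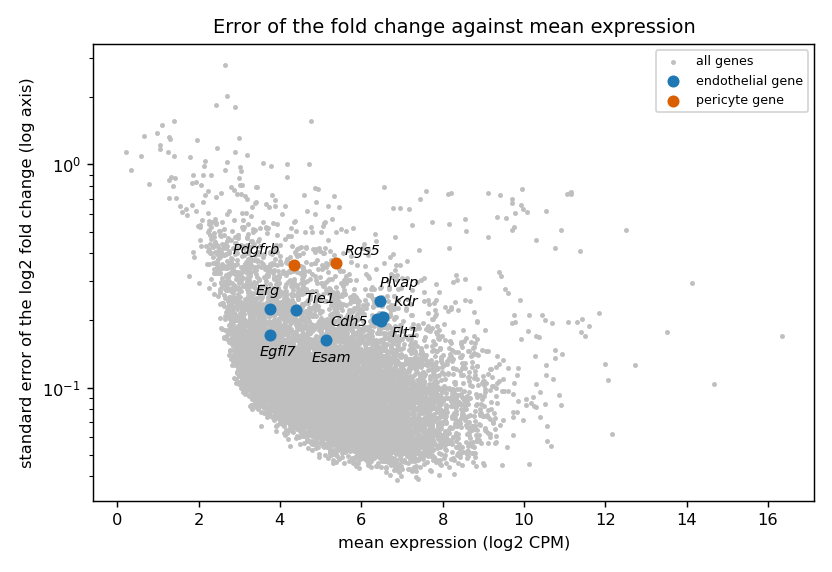
Standard error of the log2 fold change (log axis) against mean expression in log2 CPM, for all 10208 genes in grey and the 10 marker genes in colour. The marker genes lie in the upper part of the cloud, with Rgs5 (0.36) and Pdgfrb (0.35) highest.

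Per length of transcript, Plvap was the most abundant of the 10 at 5.47 log2 CPM per kb of its longest annotated transcript, a level above that of 88.2% of genes. Cdh5 (4.39), Esam (4.24), Kdr (3.96) and Flt1 (3.70) followed on the same scale. Rgs5 stood at 3.34 and Egfl7 at 2.87, and Tie1 (2.31), Erg (2.06) and Pdgfrb (1.92 log2 CPM per kb) were lowest. These are means over all samples with no spread between samples, so neighbours in the order cannot be said to differ. With all exons of a gene joined instead, Egfl7 stood at 1.93 and Flt1 at 2.73, and Rgs5 (3.19) then lay above Flt1. All 8 endothelial genes had a row, and so had the endothelial adhesion gene Pecam1, with a mean of 6.28 log2 CPM.

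**Figure D4:**
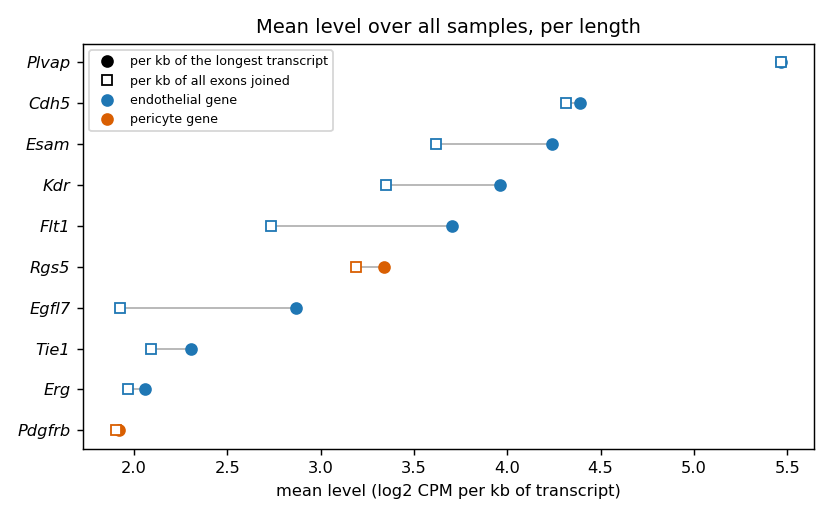
Mean level over all samples in log2 CPM per kb, by the longest transcript (filled circles) and by all exons joined (open squares). Plvap is highest at 5.47 and Pdgfrb lowest at 1.92.

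A wider list of endothelial genes was called in both directions. Of 42 names, which include an older and a newer name for 2 genes, 32 had a row. Of these, 11 rose, 2 fell and 19 did not pass per the authors' deposited table. Their median log2 fold change was 0.32, and the share called was 40.6% against 37.6% of all genes. By direction, 17.6% of all genes were called higher and 20.1% lower. The 4 genes with the smallest p were Bcl6b, a transcriptional repressor, at 0.64 ± 0.12, Ehd4, of endocytic membrane traffic, at 0.90 ± 0.19, Cav1 (caveolin-1) at 1.79 ± 0.44, and Esm1 at -0.74 ± 0.18 per the authors' deposited table, with limma adjusted p from 0.0013 to 0.0068. Esm1 is a proteoglycan induced by VEGF and a marker of endothelial tip cells. Among genes picked after their values were seen, the nitric oxide synthase gene Nos3 rose by 1.40 ± 0.38 (limma adjusted p = 0.010) per the authors' deposited table. Gpihbp1, which carries lipoprotein lipase across capillaries, fell with a log2 fold change of -1.22 ± 0.32 (limma adjusted p = 0.0094) per the authors' deposited table. Pecam1 did not pass (0.38 ± 0.23, limma adjusted p = 0.20) per the authors' deposited table.

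Structural proteins of caveolae and fenestrae made a further list, of which 8 of 10 names had a row. Of these, 5 rose and 3 did not pass per the authors' deposited table, against 17.6% of all genes called higher, and the counts were the same under each scaling. The median was 0.88. Of the 5, Plvap, Cav1 and Ehd4 are already counted in the lists above. Cav2, the partner of caveolin-1, rose by 1.61 ± 0.32 log2 units (limma adjusted p = 0.0020) per the authors' deposited table. Caveolins are also made by fibroblasts, smooth muscle and other cells, so these genes are not markers of endothelium alone.

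Of 22 transcription factors of endothelium, 8 had a row; 4 of them rose, and 4 did not pass per the authors' deposited table, beside the 17.6% of all genes called higher. Those that rose were the shear-responsive factor Klf4 (1.24 ± 0.23), the ETS factor Ets2 (0.46 ± 0.14), the SOX factor Sox7 (1.17 ± 0.36) and the hypoxia-inducible factor Epas1 (0.75 ± 0.29) per the authors' deposited table. Under the summed scaling, Ets2 (adjusted p = 0.069) and Epas1 (adjusted p = 0.092) no longer passed, and Epas1 was also lost with the ribosomal scaling (adjusted p = 0.068). Klf4 and Ets2 are also expressed by epithelial cells.

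Other genes of pericytes and mural cells were thinly covered, with 11 of 30 in the table. Of these, 3 rose, 1 fell and 7 did not pass per the authors' deposited table, a share called of 36.4% and thus near the 37.6% of all genes. The median of 0.07 became -0.07 with summed expression made equal. The receptor gene Notch3, which mural cells need for their maturation, rose by 1.59 ± 0.36 log2 units (limma adjusted p = 0.0042) per the authors' deposited table. Kcnj8, the pore of a potassium channel of pericytes, fell with a log2 fold change of -1.35 ± 0.33 (limma adjusted p = 0.0059) per the authors' deposited table. Its regulatory subunit gene Abcc9, picked after its value was seen, was at -0.69 ± 0.29 and did not pass (limma adjusted p = 0.072) per the authors' deposited table. It was lower past the threshold with the ribosomal (adjusted p = 0.048) and the summed scaling (adjusted p = 0.028), which took the number of the list's genes called lower to 2. Over all 10208 genes, those called lower went from 2049 to 2861 and 3934 under these scalings. Anpep, an aminopeptidase of pericytes and many epithelia, rose by 0.56 ± 0.14, and Vtn, vitronectin, by 3.17 ± 0.89 log2 units per the authors' deposited table. Vitronectin is also a liver product.

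Signals that pass between beta cells, endothelium and pericytes were followed in a pair of lists. Of 14 measured ligands and co-receptors of the VEGF and angiopoietin families and related guidance genes, 2 rose, 1 fell and 11 did not pass per the authors' deposited table, a share called of 21.4% against 37.6% of all genes, with a median of 0.20. Vegfa did not pass at -0.30 ± 0.12 (limma adjusted p = 0.070) per the authors' deposited table. It was lower past the threshold with the ribosomal (adjusted p = 0.028) and the summed scaling (adjusted p = 0.0092). Both scalings shift every gene down, and the genes called lower went from 2049 of 10208 to 2861 and 3934. Vegfb was at -0.31 ± 0.08 and fell (limma adjusted p = 0.010) per the authors' deposited table. The semaphorin genes Sema3e (1.37 ± 0.38) and Sema3c (0.78 ± 0.25) were the 2 that rose per the authors' deposited table.

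Among 20 genes with a row of PDGF, TGF-beta and Notch signalling, 5 rose, 2 fell and 13 did not pass per the authors' deposited table, with a median of 0.14. The share called was 35%, near the 37.6% of all genes. Under the summed scaling, 3 were higher and 5 lower, where 47% of all genes were called. Those with the smallest p were the signal transducer Smad5 (0.37 ± 0.08), its inhibitor Smad6 (0.96 ± 0.22), the endothelial receptor Notch4 (-1.04 ± 0.30) and Acvrl1 (0.75 ± 0.24), a BMP9 receptor of endothelium, per the authors' deposited table. The Notch ligand gene Dll4 of arterial and tip cells, picked after its value was seen, fell with a log2 fold change of -0.89 ± 0.29 (limma adjusted p = 0.023) per the authors' deposited table. Pdgfb, whose product is the ligand of Pdgfrb, did not pass (0.19 ± 0.36, limma adjusted p = 0.71) per the authors' deposited table.

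Among 18 basement membrane genes with a row, 5 rose, 1 fell and 12 did not pass per the authors' deposited table, so that 33.3% were called, near the 37.6% of all genes. The median of 0.14 became -0.01 with summed expression made equal. The laminin chain Lamc1 (0.39 ± 0.11), perlecan, Hspg2 (0.77 ± 0.22), the laminin receptor Bcam (0.90 ± 0.26) and Lamb2 (1.12 ± 0.36) had the smallest p per the authors' deposited table, and Lamc1 was not called under the summed scaling (adjusted p = 0.076). Lama4, the laminin chain of endothelial basement membrane, picked after its value was seen, fell with a log2 fold change of -0.78 ± 0.28 (limma adjusted p = 0.038) per the authors' deposited table. Col4a1 (0.18 ± 0.17) and Col4a2 (-0.03 ± 0.21), the collagen IV chains, did not pass per the authors' deposited table.

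Junction genes were called in 11 of 18 cases, 9 higher and 2 lower per the authors' deposited table, against 37.6% of all genes called. Once summed expression was made equal, 5 were higher and 2 lower, against 47% of all genes called. Those with the smallest p were Vcl (1.41 ± 0.29), Jup (0.65 ± 0.14) and Cdh1 (0.61 ± 0.15) per the authors' deposited table, and all of them are also expressed by epithelial cells. Cdh5 and Esam, described above, are in this list and did not pass. Of 4 measured lymphatic endothelial genes none passed by limma at an adjusted p under 0.05 per the authors' deposited table, and 2 had an unadjusted p under 0.05. Prox1, a lymphatic factor that islet cells also express, was at 0.32 ± 0.14 (limma adjusted p = 0.070), and the connexin gene Gja4, also of arteries, at 1.11 ± 0.49 (limma adjusted p = 0.082) per the authors' deposited table. Flt4, the receptor for VEGF-C, was at -0.04 ± 0.19, and Lyve1, a hyaluronan receptor of lymphatics and macrophages, at 0.06 ± 0.34 per the authors' deposited table, with a negative sign for Lyve1 under the ribosomal or summed scaling.

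**Figure D5:**
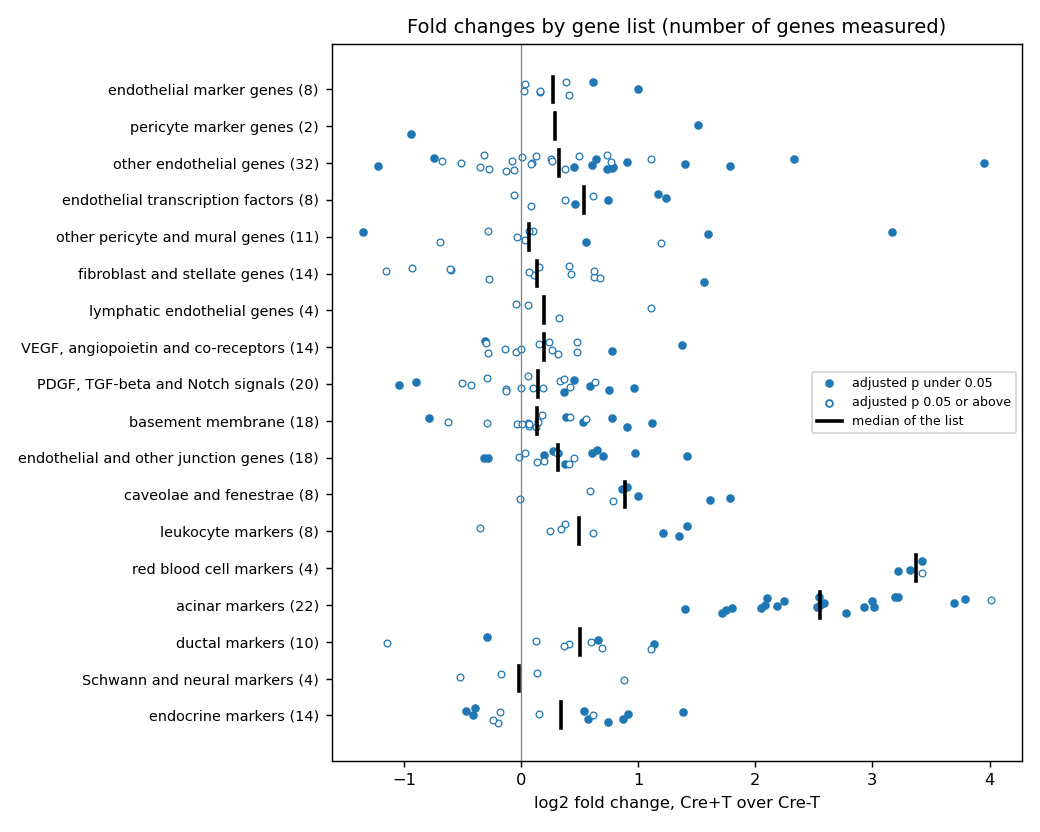
Log2 fold change, Cre+T over Cre-T, of each measured gene by list, with filled points for an adjusted p under 0.05 and a bar at each median. The endothelial marker genes have a median of 0.28 and the caveolae list 0.88, while acinar markers (2.55) and red blood cell markers (3.37) lie far to the right.

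Markers of acinar and red blood cells moved in the same comparison, in which 17.6% of all genes were called higher. Of 22 measured acinar markers 21 rose per the authors' deposited table, with a median of 2.55 log2 units and an estimated summed level of 49744 CPM in Cre+T and 11054 CPM in Cre-T. Pnlip (3.19 ± 0.77), Clps (2.99 ± 0.75), Cpb1 (2.93 ± 0.73) and Try4 (2.59 ± 0.67), all genes of pancreatic enzymes or their cofactors, had the smallest p per the authors' deposited table. Exocrine tissue has capillaries of its own, and the part of acinar tissue in the values above was not tested. All 4 measured red blood cell markers were positive and 3 passed per the authors' deposited table, with a median of 3.37 and an estimated sum of 172.6 CPM in Cre+T and 17.3 CPM in Cre-T. The globin genes Hbb-bs (3.22 ± 0.87), Hba-a1 (3.32 ± 1.02), Hba-a2 (3.42 ± 1.10) and Hbb-bt (3.42 ± 1.32) had like values per the authors' deposited table, and near-identical copies make each count uncertain.

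Of 8 measured leukocyte markers, 3 rose and 5 did not pass per the authors' deposited table. The share called, 37.5%, was near the 37.6% of all genes, of which 17.6% were called higher. The median was 0.50, and the estimated sum was 250.8 CPM in Cre+T and 135.0 CPM in Cre-T. C1qa (1.21 ± 0.18) and Cd74 (1.35 ± 0.25), of macrophages and antigen presentation, and Cd14 (1.42 ± 0.29) were those that rose, and Lyz2 (0.61 ± 0.25) did not pass per the authors' deposited table. The other C1q subunit genes, C1qb (0.34 ± 0.16) and C1qc (0.24 ± 0.17), did not pass per the authors' deposited table. Neither did the macrophage gene Cd68, at -0.35 ± 0.17, which was lower past the threshold under the summed scaling (adjusted p = 0.025). Of the 26 names on that list 18 had no row, the pan-leukocyte gene Ptprc among them, and the lowest mean of any gene in the table was 0.22 log2 CPM. Some endothelial genes of the wider list are also made by leukocytes. Among 14 measured fibroblast and stellate genes, which share the matrix around vessels, 1 rose and 13 did not pass per the authors' deposited table, with a median of 0.13 that became -0.01 under the summed scaling. The share called was 7.1% against 37.6% of all genes, and the median standard error was 0.42 against 0.10 over all genes. The gene that rose was Dcn, decorin, at 1.56 ± 0.55, while Col5a1 (-1.15 ± 0.53), Mgp (-0.60 ± 0.29) and Col1a1 (-0.93 ± 0.57) did not pass per the authors' deposited table. Mgp alone of these was lower past the threshold under the summed scaling (adjusted p = 0.044). That scaling took the genes called lower from 2049 to 3934 of all 10208.

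Of 10 measured ductal markers, 2 rose and 1 fell per the authors' deposited table, 30% against 37.6% of all genes, with a median of 0.50. Epcam (0.66 ± 0.13) and Krt8 (1.13 ± 0.32) rose, Krt7 was lower at -0.29 ± 0.11, and Sox9 (1.11 ± 0.49) did not pass per the authors' deposited table. None of 4 Schwann and neural markers passed by limma per the authors' deposited table, with a median of -0.02 and 1 of them at an unadjusted p under 0.05. Cryab (0.88 ± 0.36), Ncam1 (-0.17 ± 0.13), Ngfr (-0.53 ± 0.46) and Erbb3 (0.13 ± 0.31) had these log2 fold changes per the authors' deposited table. Endocrine markers, which make up most of an islet, gave 6 higher and 3 lower of 14 per the authors' deposited table, led by Chga (1.39 ± 0.18), Pcsk1 (0.92 ± 0.12), Pdx1 (0.57 ± 0.11) and Iapp (0.54 ± 0.10). Their estimated sum was 145194 CPM in Cre+T and 151777 CPM in Cre-T. That sum includes Ins2, the deleted gene, at an estimated 16.1 log2 CPM in Cre+T and 16.5 log2 CPM in Cre-T. It therefore does not give the direction of the other endocrine genes.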

How the data were processed

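Islet RNA of 7 Cre+T and 9 Cre-T samples was sequenced as 150 bp pairs, with 20000000 pairs a sample per the labels' protocols. TopHat2 aligned the reads to GRCm38 and limma tested the genes, per the submitters' processing notes, without versions. How reads were counted, how low genes were removed and which samples were fitted is not given in the sources used here. For each of 10208 genes the deposited table holds a log2 fold change, a mean as log2 CPM, the moderated t and the log-odds as scores, and p-values raw, adjusted and as q-values, per the file headers.

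Nothing was refitted: calls are the authors' at a limma adjusted p under 0.05 over all genes, and the adjusted p was checked against a Benjamini-Hochberg recomputation. The p-values follow from t at 16.1 degrees of freedom, which gave the 95% intervals. Scripts ran in Python 3.11.15 with scipy 1.17.1. In data simulated for Cre+T against Cre-T over 10208 genes, 63% of changes of 0.5 log2 units and 89% of changes of 1 were recovered. Of the simulated calls, 6.17% were false. These shares are over all genes, whose median standard error was 0.10. They do not give the recovery for the marker genes, whose errors ran from 0.16 to 0.36. Of the gene IDs, 10190 matched GENCODE M21 once versions were dropped. The marker genes, the 16 lists and the tests were chosen with earlier results of these data known. Named by rule were the 10 markers, the 4 smallest p of each list, and Ins2 and Esr1 for direction; any other was picked with its value in view, and 1 gene that the rule takes is not reported here. Alternatives were thresholds, Holm adjustment, filters on mean expression, 1 row per symbol, a minimum fold change, the q-value and 3 scalings, which set the median of all genes, the median of 77 ribosomal protein genes or the difference in summed expression to 0. Genes without a row were not analysed here.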

Additional observations from a re-analysis of the deposited data

How the results depend on the processing

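Results rest on 1 table of fitted values, so leaving out samples was not possible, and neither was any fit of another tool. No paired analysis was possible because the table holds no values per sample and the replicate numbers come from accession order. Of the 10 marker genes, 4 were called, 2 endothelial and 2 pericyte. An adjusted p under 0.01 left 2 (1 endothelial, Plvap, and 1 pericyte, Rgs5). Holm adjustment left 0 (0 endothelial and 0 pericyte), where 4 had an unadjusted p under 0.05 by limma. Dropping genes below the median mean left 2 (1 and 1), of 5 markers that passed this filter. A minimum of 1 log2 unit left 1 (0 endothelial, with Plvap at 0.995, and 1 pericyte). With the ribosomal and the summed scaling, 1 endothelial gene was called, since Erg was lost, and the pericyte genes kept both calls. The signs of Kdr (-0.047 and -0.12) and Esam (-0.032 and -0.11) reversed under these scalings, with no call either way. The q-value, which is 0.325 times the adjusted p-value, added Cdh5 (0.039). The summed scaling shifted all genes by 0.14 log2 units and the ribosomal scaling by 0.07. The cause of these changes was not tested beyond what each setting removes or shifts.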
